A study of Saccharomyces cerevisiae with 11 samples.

Results

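Nucleosome occupancy was compared between heavily digested chromatin of auxin-treated and untreated yeast in which both DNA topoisomerases can be degraded. Libraries were taken by the strain, auxin state and digestion level carried in the names of the deposited files, which gave 4 of the 11 libraries of the series: 2 with auxin and 2 without. All cells were Saccharomyces cerevisiae of the BY4742 background with the alleles Top1-AID and Top2-AID, in which each topoisomerase carries an auxin-inducible degron, and they grew in synthetic complete medium with 2% galactose. The auxin cells also carried pADH1-OsTIR1, which makes the plant ubiquitin ligase adaptor OsTIR1 from the yeast ADH1 promoter, and received 500 uM auxin for 60 min. The untreated cells had the same strain and promoter fusion but no auxin. A further pair of heavily digested libraries, from the Top1-AID Top2-AID strain without OsTIR1 and without auxin, served to estimate the spread between libraries and is given last. Each OsTIR1 culture was split into a treated and an untreated portion, so the 2 libraries of a group stand for 2 cultures of 1 strain. DNA coverage does not show how far the proteins were depleted.

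As background, DNA in chromatin is wrapped around histone octamers. Micrococcal nuclease removes the linker DNA between them, and the DNA that survives is sequenced. Yeast genes typically have a nucleosome-depleted promoter, a well placed first nucleosome (+1) near the start of transcription, and an array of evenly spaced nucleosomes over the gene. Top1 nicks one strand of DNA and Top2 passes one duplex through another; both relax the supercoils that form ahead of and behind a moving RNA polymerase, and strongly transcribed genes carry most of that load.

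The auxin libraries held 19329340 and 15804554 fragments, the untreated libraries 24071331 and 18867440, and those without OsTIR1 31178329 and 11182766. Mean fragment length was 129 and 129.3 bp with auxin, 131 and 132 bp untreated and 134 and 140.3 bp without OsTIR1, so fragments were shortest in the auxin libraries. The labelled nuclease dose of auxin replicate 1 and of untreated replicate 2 was the low one, 0.011719 U, although both files are named as heavily digested; the auxin state of all 4 libraries was the same in the label and the file name. Auxin replicate 1 stood somewhat apart. Across ORF bodies its log2 coverage had a Pearson r of 0.901 with auxin replicate 2 and of 0.855 and 0.86 with the untreated libraries, whereas the untreated libraries had an r of 0.984 with each other. Auxin replicate 2 was closer to the untreated libraries, with an r of 0.929 and 0.921, than to auxin replicate 1. The same held across promoters, with 0.946 and 0.935 against 0.857. By these correlations the 2 auxin libraries did not group together. These correlations describe the libraries and share one set of genes.

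Coverage is given as relative coverage, the number of fragments over a base divided by the mean over the library's nuclear chromosomes without the ribosomal DNA, so that 1 is the library mean. A body is the whole ORF and a promoter the 250 bp before the start codon, also where that window runs into a neighbouring ORF. Changes are log2 differences, auxin minus untreated, on relative coverage plus 0.1, which understates the change of features with low coverage. They were tested with limma over all features in the 6 heavily digested libraries, and a feature is called when its Benjamini-Hochberg adjusted p is below 0.05. With 2 libraries against 2 the smallest exact permutation p of a single value is 0.333.

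With auxin, nucleosome coverage rose over the bodies of 72 and the promoters of 15 of 138 ribosomal protein genes, while most genes were not called. With the culture as a replicate block the same list had 0 bodies and 31 promoters called higher. Of 5966 bodies, 186 were called (3.12%), 169 higher (2.83%) and 17 lower (0.285%), and the median change over all bodies was 0.00 on the log2 scale. The 16 gene lists used below held 585 of the tested bodies and 100 of the 169 that rose, but none of the 17 that fell. The lists were chosen with earlier results of these data known, so these counts are a description and not a test. In 27.1% of all bodies both auxin libraries lay above both untreated ones, and in 30.1% both lay below. The number called varied with the fit. Limma called 9 bodies when the libraries without OsTIR1 were left out, 9 when the culture was also added as a replicate block, and 8 in the 6 libraries with fragment length as a covariate. It also varied with single libraries: 0 bodies without either untreated library, 142 without auxin replicate 1 and 1164 without auxin replicate 2, 779 of them higher.

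Cytosolic ribosomal proteins form the 2 subunits of the ribosome, and their genes are among the most strongly transcribed in growing yeast. Of 138 such bodies 72 rose and 0 fell (limma). Both auxin libraries lay above both untreated ones at 132 of the 138 genes and below them at 2, RPL41A and RPL41B, which encode the smallest protein of the ribosome. The median relative coverage of the list was 1.06 and 0.987 with auxin, 0.817 and 0.814 untreated, and 0.849 and 0.817 without OsTIR1. The list was thus near the library mean with auxin and below it in the other 4 libraries, with a median log2 change of 0.30, against 0.00 over all bodies. The direction was shared by all settings run, with a median between 0.16 at a pseudocount of 1 and 0.33 without auxin replicate 2. The calls were not: limma called 0 of these bodies in the 4 OsTIR1 libraries alone, with or without the replicate block, and 0 with fragment length as a covariate, where the median was 0.27. It called 0 without either untreated library, 49 without auxin replicate 1, 113 higher and 1 lower without auxin replicate 2, and 34 without both libraries of disputed dose.

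RPS3, a protein of the small subunit (sacCer3 chromosome XIV, 302680 to 303402), had a body coverage of 1.29 and 1.07 with auxin, 0.793 and 0.811 untreated and 0.894 and 0.814 without OsTIR1. The auxin libraries differed from each other there but were both above the other 4, and the log2 change was 0.50 (SE 0.0832, limma adjusted p 0.0295). RPS12, also of the small subunit, had 1.22 and 0.999 with auxin and 0.776 and 0.734 untreated (log2 change 0.50). RPL8A, of the large subunit (chromosome VIII, 35255 to 36025), had 0.964 and 0.879 with auxin and 0.618 and 0.629 untreated (log2 change 0.50, SE 0.0683, adjusted p 0.0221). RPL32, of the large subunit, had 1.15 and 0.972 with auxin and 0.735 and 0.721 untreated (log2 change 0.49). In all 4 the groups did not overlap, and auxin replicate 1 was the higher of the auxin pair. RPL8A and many other ribosomal protein genes have a near-identical copy elsewhere in the genome. How fragments that match both copies were assigned is not given in the sources used here, so the split between copies is uncertain.

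**Figure D1:**
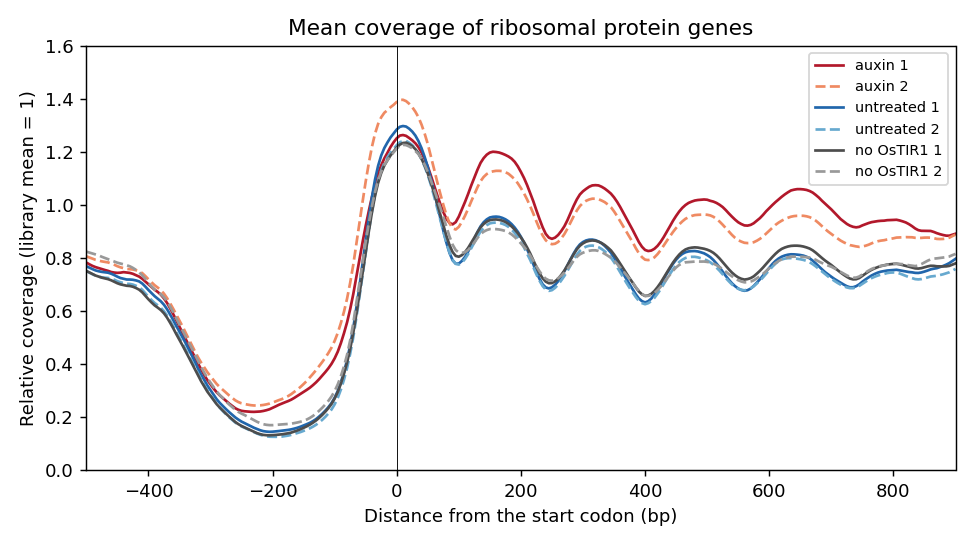
Mean relative coverage of the 138 cytosolic ribosomal protein genes (y axis, library mean = 1) against distance from the start codon in bp (x axis), smoothed over 21 bp, with 1 line per heavily digested library: auxin in reds, untreated in blues, no OsTIR1 in greys. In the second 250 bp of the gene both auxin lines run at 0.964 and 0.92 on average, above the untreated lines at 0.771 and 0.753, and the promoter minimum is shallower with auxin.

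The gain was present along the ribosomal protein genes rather than at one nucleosome. Over the first 250 bp after the start codon, a window chosen after the data were seen, mean coverage of the list was 1.1 and 1.09 with auxin, 0.95 and 0.93 untreated and 0.945 and 0.939 without OsTIR1. Over the next 250 bp it was 0.964 and 0.92 with auxin, 0.771 and 0.753 untreated and 0.78 and 0.757 without OsTIR1. This second window runs past the end of short ORFs such as RPL32 (393 bp). At the +1 nucleosome itself the auxin and untreated groups overlapped: the peak of the mean profile reached 1.264 and 1.398 with auxin, and 1.298 and 1.242 untreated. The second nucleosome peaked at 1.20 and 1.13 with auxin and at 0.956 and 0.934 untreated, without overlap. Upstream, the minimum of the profile was 0.22 and 0.244 with auxin, 0.145 and 0.126 untreated and 0.132 and 0.17 without OsTIR1. In the mean profile of ORFs of at least 1000 bp the groups overlapped in both windows: the first held 1.17 and 1.14 with auxin against 1.14 and 1.16 untreated, and the second 1.07 and 1.06 with auxin against 1.06 and 1.07 untreated.

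Other parts of the translation machinery split. Among 24 translation factors 3 bodies rose (12.5%, against 2.83% of all bodies) and 0 fell, with a median log2 change of 0.13. Both auxin libraries lay above both untreated ones at 16 (66.7%, against 27.1% of all bodies). TEF1 and TEF2 both encode elongation factor eEF1A, which brings aminoacyl-tRNA to the ribosome. TEF1 had 0.883 and 0.837 with auxin and 0.628 and 0.61 untreated (log2 change 0.42, SE 0.0469, limma adjusted p 0.0193), and TEF2 had 0.907 and 0.807 with auxin and 0.639 and 0.624 untreated (log2 change 0.39). The coding regions of this pair are nearly the same sequence, so their values may share fragments. EFB1, the nucleotide exchange factor for eEF1A, had 0.904 and 0.901 with auxin and 0.728 and 0.767 untreated (log2 change 0.24). Ribosome biogenesis genes, by contrast, stood near the background: 2 of 106 bodies rose, with a median log2 change of 0.01. These were GAR1 (log2 change 0.41) and CBF5 (0.23), which belong to the complex that converts uridine to pseudouridine in ribosomal RNA. Of 68 mitochondrial ribosomal protein bodies 1 rose, MRPL51, with 0.73 and 0.732 with auxin and 0.614 and 0.589 untreated (log2 change 0.25), and the median change of that list was 0.01.

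By number of called bodies the genes of energy metabolism came next, although the galactose regulon had a larger share called (33.3%). Of 37 respiratory chain and ATP synthase bodies 9 rose (24.3%, against 2.83% of all bodies) and 0 fell. Both auxin libraries lay above both untreated ones at 29 (78.4%, against 27.1% of all bodies). The median of the list was 1.03 and 0.962 with auxin, 0.859 and 0.869 untreated and 0.89 and 0.854 without OsTIR1. CYT1, cytochrome c1 of the bc1 complex, had 1.01 and 0.959 with auxin and 0.704 and 0.729 untreated (log2 change 0.41, SE 0.0773, limma adjusted p 0.039). COX12, a cytochrome c oxidase subunit, had 1.28 and 1.32 with auxin and 0.929 and 1.01 untreated (log2 change 0.39). ATP2, the catalytic beta subunit of the ATP synthase, had 0.794 and 0.799 with auxin and 0.592 and 0.593 untreated (log2 change 0.37, SE 0.0574, adjusted p 0.0245). In these 3 the auxin libraries were close to each other and clear of the untreated pair. NDI1, the internal NADH dehydrogenase of yeast mitochondria, had 0.953 and 0.903 with auxin and 0.688 and 0.705 untreated (log2 change 0.37).

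Among 21 bodies of glycolysis and fermentation 4 rose (19%, against 2.83% of all bodies) and 0 fell, with a median log2 change of 0.16. TPI1, triosephosphate isomerase (chromosome IV, 555726 to 556472), had 1.12 and 1.09 with auxin, 0.855 and 0.822 untreated and 0.877 and 0.856 without OsTIR1 (log2 change 0.36, SE 0.0448, limma adjusted p 0.0203). PDC1, the main pyruvate decarboxylase, had 1.21 and 1.11 with auxin and 0.881 and 0.899 untreated (log2 change 0.34). PGK1, phosphoglycerate kinase, and PFK2, a phosphofructokinase subunit, had log2 changes of 0.34 and 0.30. As in the respiratory list, the groups of these called genes did not overlap.

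The cells grew on galactose, so the galactose genes were active. Of 12 bodies of the galactose regulon 4 rose (33.3%, against 2.83% of all bodies) and 0 fell. Both auxin libraries lay above both untreated ones at 9 (75%, against 27.1% of all bodies). GAL3, the galactose sensor, had 1.06 and 1.02 with auxin, 0.839 and 0.806 untreated and 0.873 and 0.807 without OsTIR1. GAL80, the repressor of the activator Gal4, had 1.07 and 1.03 with auxin, 0.875 and 0.844 untreated and 0.958 and 0.941 without OsTIR1. GAL1, galactokinase, had 0.645 and 0.637 with auxin, 0.485 and 0.462 untreated and 0.541 and 0.638 without OsTIR1. At GAL3 and GAL80 the auxin libraries were above the other 4, whereas at GAL1 1 library without OsTIR1 lay between the 2 auxin values. GAL7, which encodes the uridylyltransferase of the same pathway, had 0.678 and 0.737 with auxin, 0.645 and 0.6 untreated and 0.732 and 0.771 without OsTIR1, and was not called (limma adjusted p 0.163).

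Smaller groups of well expressed genes held 1 or 2 calls each. Of 11 histone bodies 2 rose (18.2%, against 2.83% of all bodies), with a median log2 change over the list of 0.24. HHT1, a gene for histone H3, had 1.16 and 1.1 with auxin and 0.866 and 0.814 untreated (log2 change 0.39), and HTA1, for histone H2A, had 1.38 and 1.2 with auxin and 0.99 and 0.961 untreated (log2 change 0.37). Of 25 chaperone and heat shock bodies 2 rose (8%), with log2 changes of 0.38 and 0.30. These were SSB1, a ribosome-associated Hsp70, and HSC82, the constitutive Hsp90 gene. Both belong to families with near-identical copies. Of 22 cell wall protein bodies 1 rose (4.55%, near the 2.83% of all bodies), GAS1, a glucan-remodelling enzyme. The GAS1 body had 1.06 and 0.966 with auxin and 0.724 in both untreated libraries (log2 change 0.43, SE 0.0548, limma adjusted p 0.0203). The 7 hexose transporters had 0 calls, with a median log2 change of 0.11. Both auxin libraries lay above both untreated ones at all 7, against 27.1% of all bodies. In the respiratory, glycolysis, galactose, translation factor, histone and chaperone lists limma called 0 bodies in the 4 OsTIR1 libraries alone, with the replicate block, with fragment length as a covariate, or without either untreated library. Without auxin replicate 1 it called 3, 3, 1, 2, 2 and 1 of them higher, in that order, and without auxin replicate 2 it called 23, 10, 5, 10, 9 and 9. The proteasome (32 bodies), the phosphate regulon (16), glucose-repressed carbon genes (12) and the topoisomerases (3) had 0 calls each. Their median log2 changes lay between -0.06 and 0.06.

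**Figure D2:**
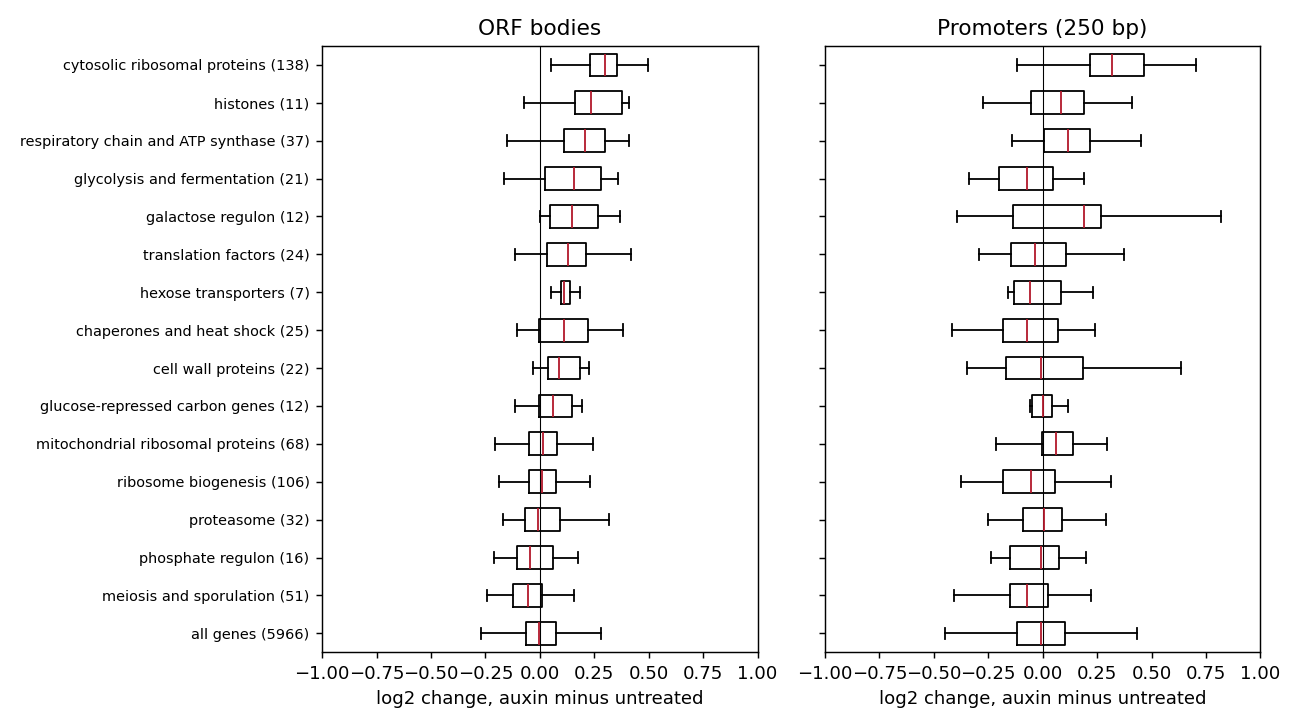
Log2 change of relative coverage, auxin minus untreated (x axis), over ORF bodies (left) and 250 bp promoters (right) for 15 gene lists and all tested genes, with the number of bodies in brackets; boxes span the quartiles, red lines are medians, and points beyond the whiskers are not drawn. Ribosomal protein genes stand highest in both panels, with medians of 0.30 and 0.32.

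**Figure D3:**
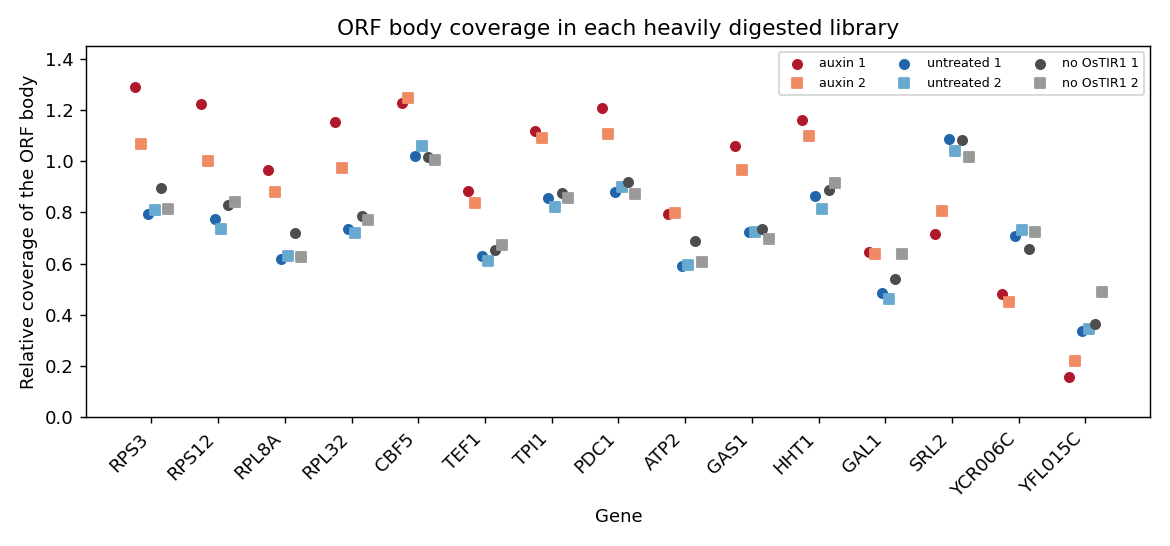
Relative coverage of the ORF body (y axis) of 15 named genes in the 6 heavily digested libraries, auxin in reds, untreated in blues and no OsTIR1 in greys. For the 12 genes that rose, from RPS3 to GAL1, both auxin points lie above both untreated points, and for SRL2, YCR006C and YFL015C both lie below.

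Meiosis and sporulation genes are little used in growing cells. Of 51 meiosis and sporulation bodies 0 were called by limma in either direction. Both auxin libraries lay below both untreated ones at 27 of them (52.9%, against 30.1% of all bodies, a difference that was not tested) and above at 4, and the median of the list was 1.08 and 1.12 with auxin and 1.15 in both untreated libraries. Of the 17 bodies that did fall, the 8 with the largest changes were YFL015C, YCR006C, SRL2, YGL006W-A, YBR072C-A, BTT1, GAT3 and YGL194C-A. SRL2 (chromosome XII, 292394 to 293572) had 0.717 and 0.807 with auxin, 1.09 and 1.04 untreated and 1.08 and 1.02 without OsTIR1 (log2 change -0.43, SE 0.0624, limma adjusted p 0.0229). YCR006C had 0.48 and 0.45 with auxin, 0.707 and 0.73 untreated and 0.655 and 0.723 without OsTIR1 (log2 change -0.53). In both the auxin libraries lay clear below the other 4. YFL015C, a short ORF of 495 bp whose upstream neighbour is the stress gene HSP12, fell by 0.62 on the log2 scale. BTT1, a subunit of the nascent polypeptide-associated complex, had 0.969 and 1.14 with auxin and 1.36 and 1.42 untreated. GAT3, a GATA-type zinc finger protein, had 1 and 1.14 with auxin and 1.37 and 1.41 untreated.

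The largest rises were at short ORFs with low coverage in untreated cells. The bodies of YPR064W, YMR242W-A, BRP1, YOR376W, YKL096C-B, YGL007C-A, YKL097C and YBL071C-B had log2 changes of 0.67 to 1.05, and all are under 500 bp long. Several lie beside a strongly expressed gene: YMR242W-A starts 76 bp from RPL20A and YKL096C-B 30 bp from CWP2, a cell wall mannoprotein. YKL096C-B had 0.538 and 0.493 with auxin, 0.292 and 0.243 untreated and 0.239 and 0.292 without OsTIR1. YBL071C-B had 0.721 and 0.858 with auxin, 0.493 and 0.421 untreated and 0.516 and 0.519 without OsTIR1. These 2 remained below the library mean in every heavily digested library. BRP1 and YKL097C passed the filter, a mean of 0.1 over all 6 libraries, only through their auxin values. The BRP1 body had 0.199 and 0.183 with auxin, 0.0655 and 0.0372 untreated and 0.0393 and 0.09 without OsTIR1. The YKL097C body had 0.187 and 0.186 with auxin, 0.0805 and 0.0729 untreated and 0.0621 and 0.103 without OsTIR1. Their place among the largest rises is therefore not evidence of a rise.

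Genes were also divided by their own body coverage in cells without OsTIR1. Those libraries enter neither side of the difference but do enter the spread estimate behind the calls. Their body coverage had an r of 0.946 to 0.979 with the untreated libraries and of 0.83 to 0.912 with the auxin libraries. A lower correlation by itself moves the extreme quintiles toward the library mean with auxin. The shares below are therefore a description and not a test. This division was added after the values were seen. In the quintile of ORFs with the lowest body coverage in those libraries, 131 of 1186 bodies rose and 2 fell, both auxin libraries lay above both untreated ones in 56.3%, and the median log2 change was 0.10. In the quintile with the highest coverage 1 of 1195 rose and 9 fell, both auxin libraries lay below both untreated ones in 48%, and the median change was -0.06. The lowest quintile without its ribosomal protein genes still had 66 of 1066 bodies higher, and a median of 0.09. Its median coverage was 0.917 and 0.872 with auxin, 0.83 and 0.85 untreated and 0.863 and 0.815 without OsTIR1, so auxin replicate 2 differed from the untreated range by less than replicate 1. By length, 44 of 877 bodies under 500 bp rose and 8 fell, against 14 and 0 of 1310 bodies of 2 kb and over. The 222 bodies within 20 kb of a chromosome end had 0 calls.

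The promoters of a small number of genes changed. Of 5963 promoters 28 were called (0.47%), 25 higher (0.419%) and 3 lower (0.0503%) with auxin. Both auxin libraries lay above both untreated ones in 21.1% and below in 23.1%, and the median log2 change was -0.01. The counts varied with the fit: 3 in the 4 OsTIR1 libraries alone, 72 with the culture as a replicate block (against 9 bodies), 3 with fragment length as a covariate, 50 without auxin replicate 1, 914 without auxin replicate 2, and 16 and 6 without untreated replicate 1 and 2 (against 0 bodies each). Those without the first auxin library were 48 higher and 2 lower, and those without the second were 350 higher and 564 lower.

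Ribosomal protein genes supplied 15 of the 25 promoters that rose. At 107 of their 138 promoters both auxin libraries lay above both untreated ones, and at 1 below. The median promoter coverage of the list was 0.457 and 0.536 with auxin, 0.385 and 0.359 untreated and 0.362 and 0.398 without OsTIR1, a median log2 change of 0.32. RPL27A (chromosome VIII, 126521 to 127492) had 0.53 and 0.525 with auxin, 0.352 and 0.228 untreated and 0.286 and 0.344 without OsTIR1 (log2 change 0.71, SE 0.142, limma adjusted p 0.0412). RPL17A had 0.45 and 0.382 with auxin and 0.228 and 0.209 untreated (log2 change 0.69), and RPL33B had 0.648 and 0.591 with auxin and 0.354 in both untreated libraries (log2 change 0.66). RPP1B, an acidic protein of the ribosomal stalk, had 0.715 and 0.558 with auxin and 0.368 and 0.357 untreated (log2 change 0.66). At each of these 4 promoters the auxin pair was clear of the other 4 libraries, and all 4 stayed below the library mean. With the culture as a replicate block 31 of the 138 promoters were called higher, with the 4 OsTIR1 libraries alone 0, without auxin replicate 1 35, without auxin replicate 2 38 higher and 1 lower, without untreated replicate 1 5 and without untreated replicate 2 0.

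The 8 promoters with the largest rises were outside the ribosomal protein list. Among them YLR111W, YKL097C and RSF2 passed the filter, a mean of 0.1 over all 6 libraries, only through their auxin values. The divergent genes YGL007C-A and BRP1 are separated by 232 bp, so nearly the same fragments fill both windows. The BRP1 promoter had 0.407 and 0.449 with auxin, 0.142 and 0.14 untreated and 0.13 and 0.214 without OsTIR1 (log2 change 1.13, SE 0.138, limma adjusted p 0.0014). CCW12, a major cell wall mannoprotein, shares a 292 bp gap with YLR111W. The YLR111W promoter had a log2 change of 1.06, that of YKL097C 1.01 and that of RSF2, a zinc finger protein, 0.74. The RSF2 window falls mostly within the ORF YJR128W, and the YKL097C window enters the ORF YKL096C-B. The CCW12 promoter had 0.23 and 0.344 with auxin and 0.132 and 0.0905 untreated (log2 change 0.86, adjusted p 0.0191). CWP2, another mannoprotein, had 0.42 and 0.429 with auxin and 0.261 and 0.216 untreated (log2 change 0.63). The CWP2 window holds the whole ORF YKL096C-B, whose body is also among the largest rises, so these changes share the same DNA. CCW12 and CWP2 were the only cell wall promoters of 22 that were called. The list as a whole did not rise, with a median log2 change of -0.006. Both auxin libraries lay above both untreated ones at 6 of the 22 (27.3%, against 21.1% of all promoters). They lay below at 8 (36.4%, against 23.1% of all promoters). AAC1, a mitochondrial ADP/ATP carrier, had 0.36 and 0.544 with auxin, 0.194 and 0.186 untreated, and 0.38 and 0.337 without OsTIR1, so there the untreated pair stood below both other groups. The GAL1 promoter (gene at chromosome II, 279021 to 280607) had 0.238 and 0.4 with auxin, 0.164 and 0.106 untreated and 0.189 and 0.227 without OsTIR1 (log2 change 0.82, SE 0.166, adjusted p 0.0412). GAL7 had 0.274 and 0.268 with auxin and 0.172 and 0.136 untreated, which missed the threshold (adjusted p 0.0628), and GAL10 had 0.092 and 0.16 with auxin and 0.103 and 0.0814 untreated, with overlap.

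The 3 promoters that fell were those of SAM3, an S-adenosylmethionine permease, PLM2, a forkhead-associated domain protein, and BCH2, an exomer component for export from the Golgi. SAM3 had 0.338 and 0.465 with auxin, 0.745 and 0.742 untreated and 0.601 and 0.613 without OsTIR1 (log2 change -0.76, SE 0.128, limma adjusted p 0.0191). PLM2 had 0.46 and 0.464 with auxin, 0.782 and 0.764 untreated and 0.786 and 0.899 without OsTIR1 (log2 change -0.64), and BCH2 had 0.554 and 0.668 with auxin and 0.967 and 0.926 untreated (log2 change -0.56). All 3 were lower in both auxin libraries than in the other 4.

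Nuclease sensitivity differed between the called sets. It was measured as the log2 ratio of light to heavy digestion in the 4 libraries without OsTIR1. The heavy ones are also in the fit, and their promoter coverage had an r of 0.948 to 0.978 with the untreated libraries. Low heavy coverage raises this ratio by construction. The promoters that rose had untreated medians of 0.314 and 0.235, against 0.822 and 0.798 over all promoters. Their high sensitivity is thus partly built in. Of the 25 promoters that rose, 96% lay above the median sensitivity of all promoters, and the quintile of ORFs with the most sensitive promoters held 22 of them. Of the 3 promoters that fell 33.3% lay above that median. Both auxin libraries lay below both untreated ones at 27.4% of promoters in the least sensitive quintile and 15.8% in the most sensitive. Of the bodies that rose 27.2% lay above the median sensitivity of bodies, and of those that fell 82.4%. Fragment length moved with the groups. With fragment length in the model the median log2 change of ribosomal protein promoters was 0.36 and that of their bodies 0.27, with 0 calls.

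Promoter depletion, the log2 ratio of promoter to body coverage in the same gene, separates a change of the promoter from one of the whole locus. Of 5956 genes 5 were called (0.0839%), 1 higher (0.0168%) and 4 lower (0.0672%) with auxin, against 0 in the 4 OsTIR1 libraries alone, 2 with the culture as a replicate block, 19 without auxin replicate 1 and 820 without auxin replicate 2. The library medians were -0.39 and -0.32 with auxin and -0.31 and -0.37 untreated, so the groups overlapped (exact permutation p 0.667). Gene by gene the groups did not overlap in 41.4%, 19.4% with auxin above and 22% with auxin below. SAM3 had ratios of -1.41 and -0.89 with auxin, -0.24 and -0.30 untreated and -0.57 and -0.45 without OsTIR1 (change -0.88, SE 0.152, limma adjusted p 0.00429). The ratio also fell at YMR242W-A and YOR376W, whose bodies rose, and at YJR128W. The YJR128W body holds most of the RSF2 promoter window, so it is not a separate change. YOR376W had 1.33 and 1.42 with auxin and 2.23 and 2.09 untreated, on the log2 scale. YGL006W-A rose, with 0.06 and -0.21 with auxin and -0.76 and -0.98 untreated. Of 138 ribosomal protein genes 0 were called, with a median change of 0.06, beside 0.32 for their promoters and 0.30 for their bodies. Both auxin libraries lay below both untreated ones in this ratio at 12 of 21 glycolysis genes, 14 of 25 chaperone genes and 10 of 24 translation factors, against 22% of all genes.

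The first nucleosome lay further downstream with auxin in most genes. Its position was the highest point of the 21 bp smoothed coverage within 60 bp of the place found in the libraries without OsTIR1, in bp from the start codon, with positive values downstream. The median position over all genes was 25 and 23 bp with auxin, 17 and 18 bp untreated and 19 and 16 bp without OsTIR1 (exact permutation p 0.333). The median change was 3.5 bp, and 66.6% of 5537 genes had a positive change. Both auxin libraries lay downstream of both untreated ones in 30.3% of genes and upstream in 9.25%. Limma called 67 genes (1.21%), 50 downstream (0.903%) and 17 upstream (0.307%). It called 0 in the 4 OsTIR1 libraries alone, 0 with the culture as a replicate block, 0 with fragment length as a covariate, 0 without either untreated library or auxin replicate 1, and 168 without auxin replicate 2. Without smoothing it also called 0, with a median change of 5 bp.

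In the genes with the largest called changes, 8 in each direction, the highest point differed by 47 to 87.5 bp. Such a change can be a switch between neighbouring local peaks within the search window, which was not tested. With a 40 bp search 32 of the 67 called genes could still be tested, and 0 were called. ZAP1, the zinc-responsive activator, had its peak at 61 and 63 bp with auxin, -26 and -25 bp untreated and 3 and -24 bp without OsTIR1 (change 87.5 bp, SE 9.46, limma adjusted p 0.0417). MOT1, which removes TATA-binding protein from DNA, had -9 and -19 bp with auxin, -71 and -77 bp untreated and -77 and -71 bp without OsTIR1. OLE1, the fatty acid desaturase, had 57 and 58 bp with auxin, 5 bp in both untreated libraries and 6 bp in both without OsTIR1 (change 52.5 bp, SE 3.16, adjusted p 0.0303). Under heavy digestion the peak of these 3 genes with auxin was at a place that neither untreated library used. In the lightly digested auxin library the OLE1 peak was at 5 bp, as in the untreated ones. NSL1, a kinetochore subunit, THI4, the thiazole synthase, MET4, the activator of sulfur amino acid genes, and YDR061W and CSS2 were likewise downstream, by 52.5 to 76.5 bp. Under light digestion without OsTIR1 the THI4 peak was at 34 and 33 bp, near its 33 and 30 bp with auxin. CSS2 was there at 90 bp in 1 library, nearer its 103 bp with auxin than its 50 and 51 bp untreated. NSL1 (-71 and -90 bp) and YDR061W (-16 and -39 bp) were not near their auxin places, and MET4 had no value.

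In the upstream direction, TOP1 itself (chromosome XV, 313078 to 315387) had its peak at 50 bp in both auxin libraries, 99 and 100 bp untreated and 101 and 103 bp without OsTIR1 (change -49.5 bp, SE 3.23, limma adjusted p 0.0303). In lighter digestion the highest point was at 44 bp with auxin and 52 bp untreated, so the lightly digested untreated library was close to the auxin values. IXR1, an HMG-box regulator, had 23 and 24 bp with auxin, 80 and 82 bp untreated and 23 and 19 bp without OsTIR1. There the untreated pair was the one that stood apart. AAC1, whose promoter also rose, had -43 and -49 bp with auxin and 5 and 6 bp untreated. ODC2, a mitochondrial carrier of oxodicarboxylates, had 67 and 68 bp with auxin and 125 and 126 bp untreated. YHR130C, YFL065C, YAR066W and YKL070W were likewise upstream, by 47 to 55 bp. Under light digestion without OsTIR1, YAR066W was at 95 and 93 bp and YKL070W at 103 and 102 bp. Those places lay near the 98 bp of both auxin libraries at YAR066W and the 107 and 103 bp at YKL070W. YHR130C was there at 151 and 153 bp, near its untreated 151 bp, and YFL065C at -18 and -19 bp, near neither group. TOP2 was not called (-15 and -13 bp with auxin, -24 and -10 bp untreated), nor were GAL1, GAL10 and GAL7.

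Most gene lists had a median change in the downstream direction, and the ribosomal protein list did not. Of 127 ribosomal protein genes both auxin libraries lay upstream of both untreated ones at 45 (35.4%, against 9.25% of all genes) and downstream at 10 (7.87%, against 30.3%), with 1 called downstream and 3 upstream and a median change of -3 bp. Their median position was 15 and 10 bp with auxin, 18 and 16 bp untreated and 18 and 19 bp without OsTIR1. Without smoothing that median change was -0.5 bp. Of 106 ribosome biogenesis genes both auxin libraries lay downstream at 40 (37.7%) and upstream at 3 (2.83%), with 0 called and a median of 4.75 bp, against 3.5 bp over all genes. At 5 of 10 histone genes both auxin libraries lay downstream and at 0 upstream, with 0 called. Within 20 kb of a chromosome end the median change over 189 genes was 0.5 bp.

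**Figure D4:**
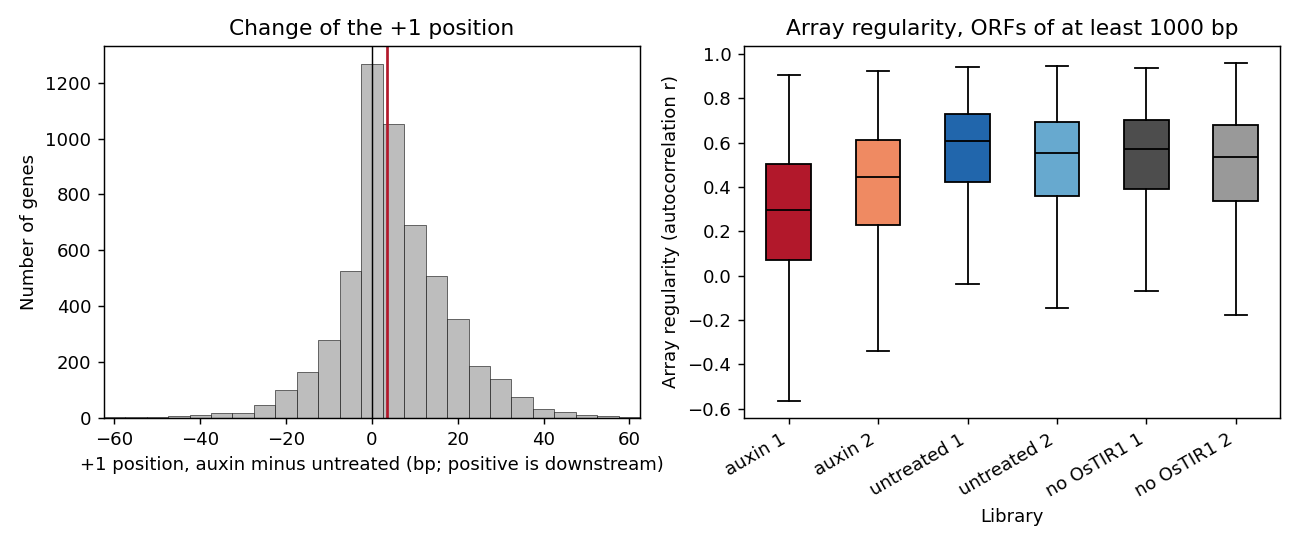
Left, number of genes (y axis) by change of the +1 position in bp, auxin minus untreated (x axis, positive downstream), for 5537 genes; the red line is the median, 3.5 bp, and genes beyond the axis are not drawn. Right, array regularity (autocorrelation at a shift of 1 nucleosome repeat, y axis) of 3574 ORFs in each heavily digested library; boxes span the quartiles, lines are medians and points beyond the whiskers are not drawn, and both auxin medians, 0.297 and 0.447, lie below the other 4.

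Nucleosome arrays were less regular with auxin over most long genes. Regularity was the correlation of the smoothed profile of the first 1000 bp with itself after a shift of about 1 nucleosome repeat, the repeat being 161 bp in the mean profile of untreated cells. The median over 3574 ORFs of at least 1000 bp was 0.297 and 0.447 with auxin, 0.606 and 0.555 untreated and 0.571 and 0.536 without OsTIR1. The auxin libraries differed from each other by more than the other 4 did among themselves, but both lay below all of them (exact permutation p 0.333). Both auxin libraries were below both untreated ones in 50.9% of these ORFs and above in 3.75% (54.6% in all), and 15.8% had a positive change. Limma called 0 ORFs (0%), with 739 at an unadjusted p under 0.05, and the replicate block also gave 0 calls; with the cultures paired crosswise, an alternative added after the data were seen, it called 228, 227 of them lower, and without auxin replicate 2 it called 927, 910 of them lower. With the coefficient of variation in place of the autocorrelation it called 2, both lower.

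The median change was below 0 in each of the 15 gene lists with ORFs of that length. It lay between -0.14 and -0.19 in each quintile of nuclease sensitivity of bodies, and was -0.17 for ORFs of 1 to 2 kb and -0.18 for longer ones. Both auxin libraries were below both untreated ones at 33 of 76 ribosome biogenesis genes, 22 of 39 meiosis genes and 7 of 19 ribosomal protein genes. Within 20 kb of a chromosome end it was 40% of 115 ORFs, against 50.9% of all, with a median change of -0.10. CDC19, pyruvate kinase, had the largest fall in value, with -0.46 and -0.18 with auxin, 0.75 and 0.47 untreated and 0.78 and 0.57 without OsTIR1, but was not called (limma adjusted p 0.119). YMR187C had -0.31 and -0.09 with auxin and 0.69 and 0.62 untreated. TOP1 had -0.40 and -0.50 with auxin, 0.30 and 0.16 untreated and 0.01 and -0.16 without OsTIR1. TOP2 had 0.00 and 0.72 with auxin and 0.79 and 0.90 untreated, so 1 auxin library carried most of its difference. In the other direction VVS1 had 0.63 and 0.66 with auxin and 0.23 and -0.07 untreated, also not called (adjusted p 0.121).

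The mean profile of 3576 ORFs of at least 1000 bp showed how small the average displacement was. After smoothing, its +1 peak lay at 16 bp in both auxin libraries and at 7 bp in both untreated ones, and at 8 and 7 bp without OsTIR1. The +2 peak lay at 166 and 165 bp with auxin and 156 bp in both untreated libraries, the +3 peak at 327 and 332 bp against 324 and 325 bp, and the +4 peak at 492 and 494 bp against 490 bp in both. The displacement was 9 and 9.5 bp at +1 and +2, and 5 and 3 bp at +3 and +4 (exact permutation p 0.333 each). The -1 peak lay at -282 bp in both auxin and -280 bp in both untreated libraries. Without smoothing the +1 peak was at 6 bp in all 6 libraries, so its shift there is 0, whereas the +2 peak was at 165 and 166 bp with auxin and 151 and 157 bp untreated. The depth of the promoter gap overlapped: its minimum was 0.574 and 0.606 with auxin and 0.592 and 0.568 untreated.

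**Figure D5:**
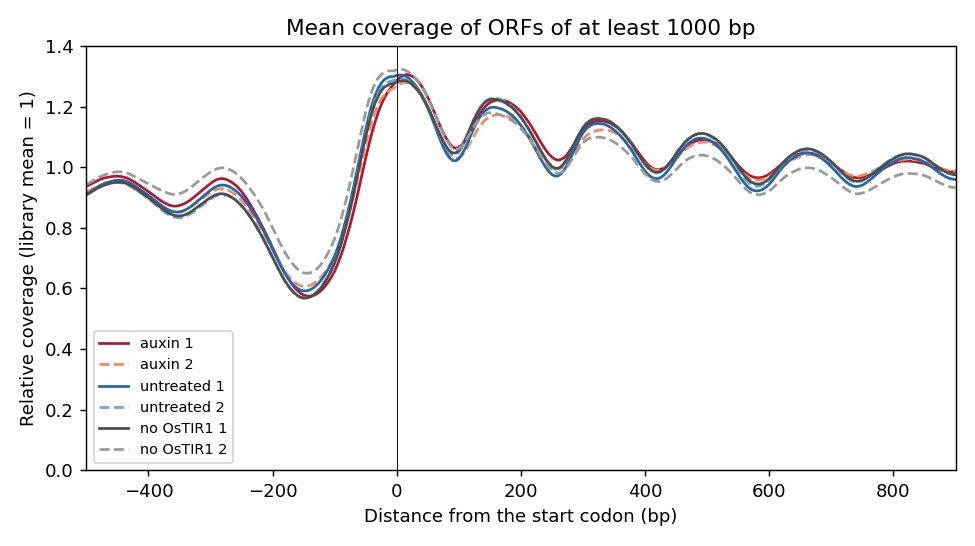
Mean relative coverage of 3576 ORFs of at least 1000 bp (y axis, library mean = 1) against distance from the start codon in bp (x axis), smoothed over 21 bp, for the 6 heavily digested libraries: auxin in reds, untreated in blues, no OsTIR1 in greys. The heights of the +1, +2 and +3 peaks overlap between the groups. The mean height of these peaks above the troughs that follow them is 0.201 and 0.188 with auxin, 0.231 and 0.222 untreated and 0.215 and 0.204 without OsTIR1 (exact permutation p 0.333). The auxin peaks at +1 and +2 lie 9 and 9.5 bp further downstream on average. Without smoothing the +1 peak is at 6 bp in all 6 libraries.

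Lightly digested libraries gave a separate look at the same genes. Of these, 1 with auxin and 1 untreated had the same auxin state in label and file name and mean fragments of 150.1 and 149.8 bp; there is no replicate and hence no test. They came from different cultures, and the labelled dose of the auxin library was the high one, 0.1875 U. Of the 169 bodies that rose under heavy digestion 156 (92.3%) were higher with auxin there, against 55.9% of all bodies. All 138 ribosomal protein bodies were higher, with a median of 0.764 with auxin and 0.535 untreated, as were all 12 of the galactose regulon. RPL8A had 0.54 with auxin and 0.299 untreated, PGK1 had 0.756 with auxin and 0.386 untreated, and CBF5 had 1.03 with auxin and 0.641 untreated. Another lightly digested OsTIR1 library is labelled untreated, but its file name says auxin, and it was left out of these comparisons. It had 0.58 at RPL8A, 0.813 at PGK1 and 1.21 at CBF5, above both other libraries. The comparison at these genes thus depends on the auxin state of that library, which is disputed. Of the 25 promoters that rose under heavy digestion 5 (20%) were higher in the lightly digested auxin library, near the 30.6% of all promoters, whose median log2 difference there was -0.10. At the BRP1 promoter the value was 1.7 with auxin and 2.14 untreated, and at GAL1 1.47 with auxin and 1.92 untreated, both well above the library mean. Of 4698 genes with a +1 position in both lightly digested libraries, 50.5% had it further downstream with auxin, and of 38 genes called downstream under heavy digestion 26 did. Regularity was higher in the lightly digested auxin library at 41.2% of 3574 ORFs, with a median difference of -0.05. Under heavy digestion 1818 ORFs had both auxin libraries below both untreated ones. Of these 40% were higher in the lightly digested auxin library, near the share of all ORFs.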

How the data were processed

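Each deposited library was whole-number coverage (fragments per base), which the authors made from fragments of 95 to 225 bp, as the alignment names inside the files say; duplicate handling is not given in the sources used here. Bowtie2 and sacCer3 are named in the submitters' processing notes, without versions. The assembly R64 annotation (the same assembly as sacCer3) gave 6002 nuclear ORFs, of which 5976 lay at least 1000 bp from a chromosome end. Coverage was divided by the nuclear mean without the ribosomal DNA (chromosome XII, 451786 to 468931), so values are relative within a library and carry no absolute scale.

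Tests used limma 3.58.1 in R 4.3.3 (lmFit, eBayes; Python 3.11.15, numpy 2.4.6 for the coverage) on log2(relative coverage + 0.1), or on bp and autocorrelation, over 6 libraries with a term for state. Features needed a mean of at least 0.1 over the 6 heavily digested libraries, so some passed only through their auxin values. Genes whose +1 peak lay on a search edge in any library were left out. The code was tested on simulated data.

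The 4 members and the lists were chosen with earlier results of these data known. RPP1, an RNase P subunit caught by a name pattern, was removed from the ribosomal protein list after values were seen. Named genes are, per measure, the 8 largest called changes in each direction whose groups do not overlap, called list members (at most 4 per list with over 5), for regularity the 3 largest uncalled changes each way, and GAL1, GAL10, GAL7, TOP1 and TOP2. RPL41A and RPL41B were named after their values were seen. The text gives most genes that the rule names, and 1 is not reported here.

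Same-numbered auxin and untreated libraries share a culture by the growth protocol and the culture tag of the deposited files. Their deviations from the group means correlated at -0.08 for promoters, -0.15 for bodies, -0.05 for depletion, 0.02 for +1 and 0.01 for regularity. Whether separate cultures were grown on separate days is not given.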

Additional observations from a re-analysis of the deposited data

How the results depend on the processing

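Calls rested on few libraries. Leaving out 1 of the 6 in turn gave 3 to 914 promoters, 0 to 1164 bodies, 0 to 820 for depletion, 0 to 168 for +1 and 0 to 927 for regularity; a lone library left in a state was assumed to vary like the others. The 4 OsTIR1 libraries alone gave 3 promoters, 9 bodies, 0 for depletion and 0 for +1; with the culture as a replicate block, 72, 9, 2 and 0. A crossed pairing, added after seeing the data, gave 121 promoters, 14 bodies, 62 for depletion, 0 for +1 and 228 for regularity. Fragment length as a covariate gave 3, 8, 0 and 0, and all 11 libraries by label with labelled dose 0, 0, 0 and 0. That last fit took a library labelled untreated as untreated although its file name says auxin. It also took labelled doses that differ from the file names, among them those of auxin replicate 1 and untreated replicate 2. Its loss of calls therefore cannot be told apart from mislabelling. Without both libraries of disputed dose (added) there were 13 promoters, 1 for depletion and 0 for +1. The eBayes fit with trend and robust options gave 10 promoters, 9 for depletion and 43 for +1. A pseudocount of 1 gave 0 promoters and 2 for depletion, 0.01 gave 9 for depletion, no filter 13 promoters, and a filter at 0.5 gave 0 promoters and 2 for depletion. A 150 bp promoter gave 9 promoters and 3 for depletion, the first 500 bp of the ORF 113 bodies, a 40 bp search 0 for +1, no smoothing 0 for +1, and the coefficient of variation 2 for regularity. The cause was not tested. In the mean profile without smoothing, the differences in +1 position and in -1 to +1 distance were 0 bp, and the spacing difference, -2 bp with smoothing, was 1.333 bp.

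Among named genes, of 1855 values under alternatives 1031 kept direction and side of the threshold, 780 lost the call, 17 gained it and 27 changed sign, each in a measure in which that gene was not called. With all 11 libraries by their disputed labels these were GAL10 promoter -0.103, TOP1 body 0.0766, TOP2 body 0.0201, and the +1 of GAL1 (-7.75 bp) and TOP2 (-3.03 bp). Without both disputed libraries they were TOP1 promoter 0.149, GAL10 depletion 0.0661, TOP1 depletion 0.209, and the +1 of GAL1 (-17 bp) and GAL10 (0 bp). GAL10 depletion was 0.0673 at a pseudocount of 0.01, 0.0521 with fragment length and 0.00313 with a 150 bp promoter; the +1 of TOP2 was -8.77 bp with fragment length and that of GAL1 -2 bp unsmoothed. By the coefficient of variation, regularity was -0.0139 for MDL2, -0.0191 for RSF2, 0.103 for TOP1 and 0.015 for TOP2. Leaving out 1 library gave -0.287 to 0.0157 for the TOP1 promoter, -0.229 to 0.127 for GAL10 depletion, -0.237 to 0.0767 for TOP1 depletion, -23.5 to 29.5 bp for the +1 of GAL1 and -4 to 10 bp for that of TOP2.

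The planned search for promoter motifs was not run because no genome sequence was used here. Depth was 15804554 fragments or more in each of the 4 libraries, and its effect on the calls was not tested.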
